A study of Homo sapiens with 3 samples.

Results

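The genes described here are 10 transcriptional targets of Wnt signalling, namely LGR5, ASCL2, SMOC2, AXIN2, NKD1, RNF43, ZNRF3, DKK1, NOTUM and SP5. They were taken by symbol from the 33538 genes of the count matrices, and all 10 were found as single rows. Transcripts were counted cell by cell in 3 libraries made from Caco-2 and HT29 cells grown together, both established human colorectal adenocarcinoma lines. The cells had been seeded on Transwell inserts at 9 parts Caco-2 to 1 part HT29 and were harvested on day 23. Control 1 and control 2 were untreated, and the LPS library had received Escherichia coli lipopolysaccharide, a component of the Gram-negative bacterial wall, in the apical chamber at 1 ng/ml for 24 h from day 22. The inserts hold epithelial cells alone, with no stroma, immune cells or crypt, and each library is 1 sample, so the LPS condition has no replicate. The study's methods speak of several Transwell inserts, but no label ties a library to an insert, so the spread between the controls may be technical.

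In the canonical Wnt pathway, a ligand bound to a Frizzled receptor and LRP5 or LRP6 stops the destruction complex from degrading beta-catenin, which then enters the nucleus and switches on targets with TCF and LEF factors. In the intestinal crypt this signal maintains the stem cells, and several of its targets feed back to damp it. Both Caco-2 and HT29 carry truncated APC, a scaffold of the destruction complex, so that part of the pathway is defective in both.

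Among the stem cell targets, LGR5 (ENSG00000139292, chr12:71439798-71586310, plus strand of GRCh38) encodes a receptor for R-spondins and marks the stem cells at the crypt base. ASCL2 (ENSG00000183734, chr11:2268498-2270588, minus strand) is a transcription factor of the stem cell programme. SMOC2 (ENSG00000112562, chr6:168441151-168673445, plus strand) is a secreted matrix-associated protein of the stem cell signature. AXIN2 (ENSG00000168646, chr17:65528563-65561648, minus strand) is a scaffold of the destruction complex, and NKD1 (ENSG00000140807, chr16:50548396-50649249, plus strand) binds Dishevelled. Both act inside the cell to lower the signal. RNF43 (ENSG00000108375, chr17:58353676-58417595, minus strand) and ZNRF3 (ENSG00000183579, chr22:28883572-29057488, plus strand) are membrane ubiquitin ligases that remove Frizzled from the cell surface, and R-spondins bound to LGR receptors clear them. DKK1 (ENSG00000107984, chr10:52314281-52318042, plus strand) is a secreted inhibitor that binds LRP5 and LRP6. NOTUM (ENSG00000185269, chr17:81952507-81961840, minus strand) is a secreted enzyme that removes the lipid of Wnt ligands. SP5 (ENSG00000204335, chr2:170715337-170718078, plus strand) is a transcription factor induced by the pathway. Positions are those of GENCODE on GRCh38. Of the 10 genes, 7 overlap a counted gene on the other strand and AXIN2 overlaps a counted gene on its own strand, so some of its reads may have been shared with that gene.

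The promoters of DKK1 and SP5 are shown because both genes had the TCF and LEF core motif upstream of their start. RefSeq promoter windows (GRCh38.p14) were at hand for SMOC2, DKK1, RNF43 (2 start sites) and SP5. The 250 bases before each start were searched on both strands for CTTTGAT and CTTTGAA, which cannot overlap each other on the same strand. At least 1 of these words was present in 5.94% of the 35116 windows of the table. Matches are in capitals, written 5′ to 3′ in the direction of the gene.
SP5, chr2:170715087-170715336, plus strand: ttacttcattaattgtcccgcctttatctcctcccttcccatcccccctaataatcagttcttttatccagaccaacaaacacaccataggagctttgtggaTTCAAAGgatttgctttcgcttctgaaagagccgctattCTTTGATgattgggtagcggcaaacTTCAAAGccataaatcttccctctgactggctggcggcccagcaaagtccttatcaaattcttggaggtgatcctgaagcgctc
DKK1, chr10:52314031-52314280, plus strand: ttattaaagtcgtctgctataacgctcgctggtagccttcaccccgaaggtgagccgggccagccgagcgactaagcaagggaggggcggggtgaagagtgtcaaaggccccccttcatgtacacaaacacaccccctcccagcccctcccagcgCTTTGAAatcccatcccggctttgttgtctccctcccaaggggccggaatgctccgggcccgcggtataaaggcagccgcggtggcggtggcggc
SP5 had 3 matches, CTTTGAT starting at position -109 and the reverse complement of CTTTGAA starting at -148 and -84, counted from the start site. DKK1 had CTTTGAA starting at -95. The windows of SMOC2 and RNF43 held neither word. A match is a stretch of letters and not a measured binding site.

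After filters on cell quality and the removal of likely doublets, 14472 of 19144 barcodes were kept, from 4633 to 4989 cells a library, and the median depth ranged from 3572.5 unique molecular identifiers (UMIs, each standing for 1 captured transcript) in the LPS library to 5455 in control 1. Pairs of libraries shared 9 to 11 barcodes. Each cell was given to a line by its UMIs on signature genes of the 2 lines, with the 10 genes and all other Wnt genes listed below left out. Caco-2-line cells made up 79.3% to 83.8% of a library and HT29-line cells 14.2% to 18.9%, and 1.76% to 2.52% of cells were left unassigned. All 5 epithelial markers (EPCAM, CDH1, KRT8, KRT18, VIL1) were detected in both lines. Levels are given as CPM, the UMIs of a gene scaled to the total UMIs of the cells summed. The 10 markers of blood, endothelial and stromal cells summed to 37.1 to 42.3 CPM against 3161 to 3262 for the epithelial markers. Genes typical of a line were also read in cells given to the other line. APOA4, an enterocyte apolipoprotein, was held by Caco-2-line cells at 1198 to 1542 CPM. It read 53.5 to 69.5 in HT29-line cells, 4.47% of its Caco-2-line mean. These 693 UMIs lay in 156 of 2398 HT29-line cells, with up to 49 in a cell. Whether they came from free RNA caught in droplets or from another source was not tested. LCN2, an HT29-line gene, read 1.31% of its HT29-line mean in Caco-2-line cells.

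The 10 genes split between the lines. AXIN2, RNF43 and ZNRF3, which act inside the cell or at the Frizzled receptor, were higher in HT29-line cells, and the other 7, with LGR5, ASCL2 and DKK1 among them, were higher in Caco-2-line cells. All 10 passed an adjusted p of 0.05 in a fit over libraries with the library as a block (edgeR quasi-likelihood test, 3 higher and 7 lower in HT29-line cells). The background was high, since 72.5% of the 13980 genes tested passed, 34.7% higher and 37.9% lower. The 3 libraries of a line did not overlap those of the other line for any of the 10 genes, which was also so for 72.5% of all genes tested.

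LGR5 read 6.33, 4.02 and 4.77 CPM in the Caco-2-line cells of control 1, control 2 and LPS, and 0.720, 0 and 0.618 in HT29-line cells. It was a rare transcript even in the Caco-2 line, where 1.58% to 3.12% of cells held a UMI. In HT29-line cells 5 UMIs were counted in all against 318 in the Caco-2 line, a ratio of 11.8 per UMI with a counting interval of 4.99 to 36.5. Control 2 had 0 of 944 HT29-line cells with an LGR5 UMI, which allows a share of cells with an LGR5 UMI of up to 0.318%, a limit on cells with a captured UMI and not on cells that express the gene. The fitted difference, HT29-line minus Caco-2-line, was -3.57 ± 0.45 on the log2 scale (SE, n = 3 libraries, adjusted p = 1.71e-06). The HT29-line level was 8.85% of the Caco-2-line level. With 5 UMIs its interval took in the 4.47% that APOA4 showed, so the 2 shares could not be told apart at this depth.

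ASCL2 was the most widely detected stem cell target. It read 72.4, 58.2 and 53.7 CPM in the Caco-2-line cells of control 1, control 2 and LPS, where 18.8% to 30.4% of cells held a UMI. HT29-line cells read 30.0, 21.0 and 20.7, below every Caco-2-line value, and the fitted difference was -1.43 ± 0.11 (log2, adjusted p = 2.30e-09). With every cell thinned to the UMI minimum of control 1, ASCL2 was found in 10.5% to 13.7% of Caco-2-line cells and 4.25% to 6.06% of HT29-line cells. SMOC2 stood at 3.38, 3.27 and 1.93 CPM in the Caco-2 line and at 0.720, 0.250 and 1.24 in the HT29 line, where it rested on 8 UMIs in all. Its fitted difference was -2.09 ± 0.48 (adjusted p = 8.16e-04).

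AXIN2 showed the largest rise in HT29-line cells. Its levels were 47.0, 50.8 and 57.2 CPM in the HT29-line cells of control 1, control 2 and LPS, against 5.06, 6.04 and 4.71 in Caco-2-line cells, a difference of 3.22 ± 0.13 (log2, adjusted p = 6.91e-13). The share of cells with an AXIN2 UMI was 17.3% to 22.4% in the HT29 line and 1.75% to 2.96% in the Caco-2 line. NKD1, the other intracellular inhibitor, went the opposite way and by less. It read 4.26, 4.17 and 6.04 in Caco-2-line cells and 3.60, 1.501 and 3.71 in HT29-line cells, a fitted difference of -0.77 ± 0.28 (adjusted p = 0.0189). That call was lost without control 2 (adjusted p = 0.138), without the LPS library (0.0670) and with DESeq2 (0.126).

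Both Frizzled ubiquitin ligases were higher in the HT29 line. RNF43 read 199, 165 and 235 CPM in the HT29-line cells of control 1, control 2 and LPS and 44.6, 39.8 and 47.3 in Caco-2-line cells, a difference of 2.11 ± 0.09 (log2, adjusted p = 8.45e-13). It was found in 41.7% to 59.5% of HT29-line cells, with 1.87 UMIs per positive cell, and in 16.5% to 23.0% of Caco-2-line cells, with 1.22. ZNRF3 read 28.6, 21.8 and 28.4 in the HT29 line and 8.00, 8.45 and 9.60 in the Caco-2 line, a difference of 1.54 ± 0.14 (adjusted p = 2.33e-08).

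The secreted inhibitors were higher in the Caco-2 line. DKK1 read 72.1, 66.5 and 68.5 CPM in the Caco-2-line cells of control 1, control 2 and LPS and 9.60, 3.75 and 8.96 in HT29-line cells, a difference of -3.29 ± 0.17 (log2, adjusted p = 1.35e-11). The 3 Caco-2-line values lay close together, and the HT29-line level was 10.8% of them, where APOA4 showed 4.47%. APOA4 is a single gene, and this share varied between genes higher in the Caco-2 line. ANPEP read 1.92, 2.25 and 3.71 CPM in HT29-line cells against 29.3, 26.0 and 27.1 in Caco-2-line cells. OLFML3 read 0, 0.751 and 0.309 against 16.5, 16.1 and 15.1. In control 2 the HT29-line DKK1 value of 3.75 rested on 15 UMIs (counting interval 2.10 to 6.19). The 84 HT29-line UMIs of DKK1 lay in 44 cells, with up to 14 in a cell, and their source was not tested. NOTUM was low in both lines, at 2.67, 2.72 and 2.78 in Caco-2-line and 1.20, 2.25 and 1.24 in HT29-line cells. Its difference of -0.85 ± 0.36 (adjusted p = 0.0422) rested on 18 HT29-line UMIs and was lost without control 1 (adjusted p = 0.173), without the LPS library (0.161) and with DESeq2 (0.212). SP5 read 13.9, 11.5 and 11.7 in the Caco-2 line and 7.68, 4.25 and 5.25 in the HT29 line, a difference of -1.17 ± 0.18 (adjusted p = 1.90e-05).

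**Figure D1:**
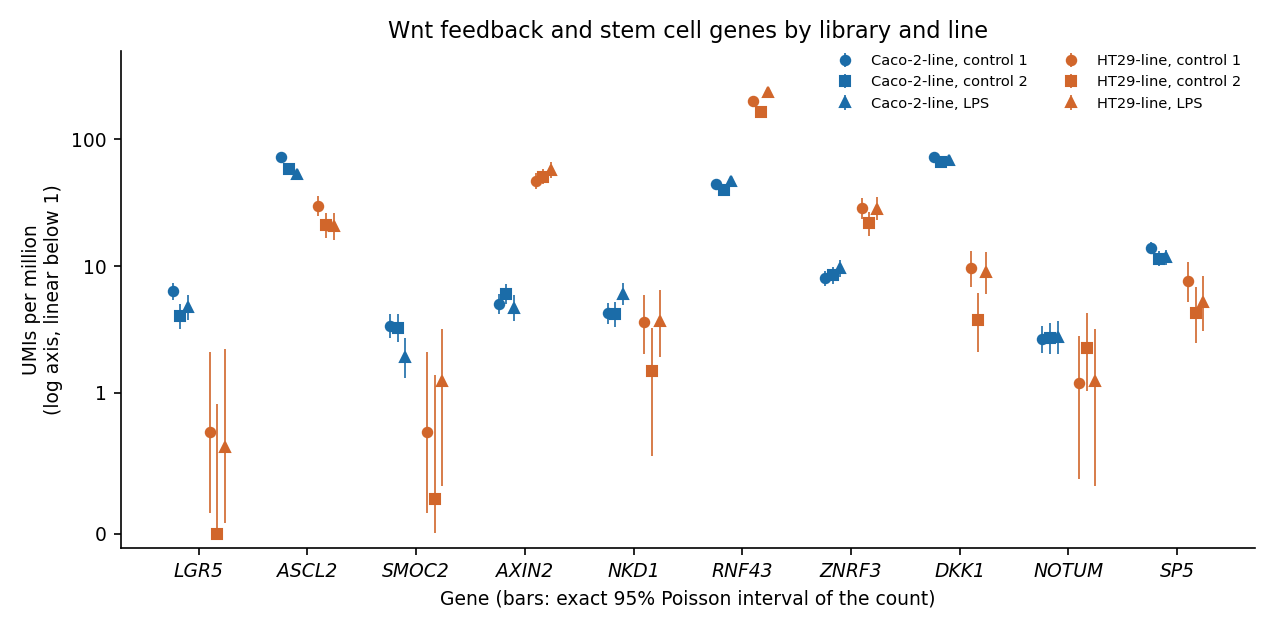
Level of each of the 10 genes in CPM (log axis, linear below 1) by library and line, with bars for the exact 95% Poisson interval of the count, which covers counting error only. HT29-line points lie above Caco-2-line points for AXIN2, RNF43 and ZNRF3 and below them for the other 7 genes.

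HT29-line cells were mostly in G1, with 2108 G1, 170 S and 120 G2M cells against 6342, 2558 and 2872 in the Caco-2 line. Among G1 cells alone, an alternative added after the data were seen, AXIN2, RNF43 and ZNRF3 stayed higher in the HT29 line (3.39 ± 0.15, 2.07 ± 0.10 and 1.77 ± 0.17 on the log2 scale) and 5 genes stayed lower. NOTUM did not pass (-0.87 ± 0.44, adjusted p = 0.0837), and SMOC2 was removed by the filter on low counts.

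Other genes of the pathway also differed between the lines, as did 72.5% of all genes tested. Of 23 other Wnt targets tested, 15 were higher in HT29-line cells and 4 lower, where 34.7% and 37.9% of all genes were. The median difference of these targets was 0.58 against -0.06 over all genes. Those with the largest changes were CD44, a hyaluronan receptor, at 237 ± 20.7 CPM in the HT29 line and 5.54 ± 2.10 in the Caco-2 line (mean ± SD, n = 3), the matrix protease MMP7 at 33.3 ± 1.58 against 0.364 ± 0.110, and NOS2, which had no UMI in the HT29 line and 96 in the Caco-2 line. Of 19 ligand genes only 6 were tested, 4 higher and 2 lower in the HT29 line. The largest changes were those of WNT7B (4.38 ± 0.35, log2), WNT4 (4.29 ± 0.44) and WNT10A (3.94 ± 0.30). WLS, which carries Wnt ligands to the cell surface, read 233 ± 45.9 against 20.1 ± 2.87.

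Of 13 receptor genes tested, 1 was higher and 7 were lower in HT29-line cells, where 34.7% and 37.9% of all genes were. FZD3 (-3.05 ± 0.22), ROR2 (-2.74 ± 0.54) and FZD4 (-2.69 ± 0.20) had the largest changes. LGR4, an R-spondin receptor outside the 10 genes, read 49.4 ± 10.1 in the HT29 line and 49.5 ± 8.19 in the Caco-2 line. Among 6 other inhibitors tested, which were secreted or membrane proteins, 3 were higher and 2 lower. DKK3 fell from 10.8 ± 1.83 CPM in the Caco-2 line to 0.270 ± 0.253, and the membrane protein TPBG was higher in the HT29 line (3.07 ± 0.18, log2). Among 24 genes of the destruction complex and transducers, 10 were higher and 7 lower, with TCF7L1 at 3.39 ± 1.64 against 37.1 ± 5.39. Of 13 other stem cell markers, 4 were higher and 6 lower. The R-spondin genes had 3 UMIs in all Caco-2-line cells and none in HT29-line cells, and OLFM4, a marker of human intestinal stem cells, had 4 UMIs in all.

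Levels were then followed over 11 clusters of cells, built after the 10 genes and the other Wnt genes had been removed from the features. The names rest on markers other than the 10 genes and on a naming rule chosen after the clusters had been seen. Of the stem-like markers, FGG and PLA2G2A were reported by the study for its own stem-like group. The study had annotated that group in this series with LGR5, ASCL2 and SMOC2 among its markers. Higher levels of these genes in the stem-like cluster are thus not independent of its name. The cells compared are those that were clustered, so the values below are descriptions with no test. In the stem-like cluster (3072 cells, led by PLA2G2A, REG3A and OLFML3) all 10 genes were higher than in the enterocyte-like cluster (2033 cells, with APOA4 and FABP2 among its leading genes) in every library, with no overlap between libraries. The share of all genes without such overlap was not counted, so how unusual this is was not tested. The reference was also low, since the enterocyte-like cluster had the lowest mean of the 11 clusters for AXIN2, RNF43, ZNRF3 and NOTUM. For the other genes it did not. The median fitted difference was 1.93 on the log2 scale, against 0.0069 over all genes fitted.

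LGR5 reached 17.5, 10.2 and 9.10 CPM in the stem-like cells of control 1, control 2 and LPS, against 0.451 ± 0.151 in enterocyte-like cells (mean ± SD, n = 3 libraries). The stem-like cluster was 21.2% of kept cells and held 60.7% of LGR5 UMIs and 66.8% of SMOC2 UMIs. The study's stem-like group was a much smaller share of its cells, so the 2 groups are not the same set. The class held 3072 cells here and 877 at a resolution of 0.8. SMOC2 read 9.66, 9.05 and 5.46 in the stem-like cells and 0.184 ± 0.173 in enterocyte-like cells. ASCL2 changed least of the stem cell targets, from 35.5 ± 4.01 to 85.2 ± 22.1, a difference of 0.96 ± 0.12 (log2 ± SE). DKK1 rose from 4.201 ± 2.56 in enterocyte-like to 155 ± 30.9 in stem-like cells (5.04 ± 0.28), and NOTUM from 0 UMIs in 2033 enterocyte-like cells to 4.86 ± 1.57. Differences of the remaining genes were 2.06 ± 0.22 for SP5, 1.80 ± 0.26 for ZNRF3, 1.59 ± 0.33 for AXIN2, 1.06 ± 0.29 for NKD1 and 0.93 ± 0.13 for RNF43.

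The TA-like cluster (1659 cells, led by MCM10, MYBL2 and TAGLN, named after the proliferating transit-amplifying cells of the crypt) stood between the stem-like and the enterocyte-like cluster for 9 of the 10 genes. It read 7.82 ± 2.50 CPM for LGR5 and 111 ± 11.1 for DKK1, second to the stem-like cluster in both, and the libraries of the 2 clusters overlapped for LGR5 but not for DKK1. ASCL2 and SMOC2 were at 78.9 ± 13.2 and 2.71 ± 1.07 in TA-like cells, and RNF43 and ZNRF3 at 37.8 ± 6.69 and 10.01 ± 1.05. AXIN2, NOTUM and SP5 were at 5.11 ± 0.47, 2.09 ± 0.14 and 11.8 ± 0.33. NKD1 was at 3.07 ± 0.79 in TA-like and 3.29 ± 1.46 in enterocyte-like cells against 8.69 ± 0.30 in stem-like cells. The distance from TA-like to stem-like cells depended on the clustering. The median over the 10 genes was 0.63 as clustered here, 1.85 at a resolution of 0.8, 2.73 with doublets kept and 3.09 with the 10 genes and the other Wnt genes among the features. DKK1 was among the 10 leading genes of the stem-like cluster here, at a resolution of 0.3 and with the minimums of control 1 in all libraries. At a resolution of 0.8 it was among those of a TA-like cluster instead. With doublets kept, and with the Wnt genes among the features, it was among those of an unnamed cluster (3316 and 3083 cells). In these settings and at a resolution of 0.8, all 10 genes were fitted higher in the stem-like than in the TA-like class. The study reports high DKK1 in a TA-like subgroup.

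**Figure D2:**
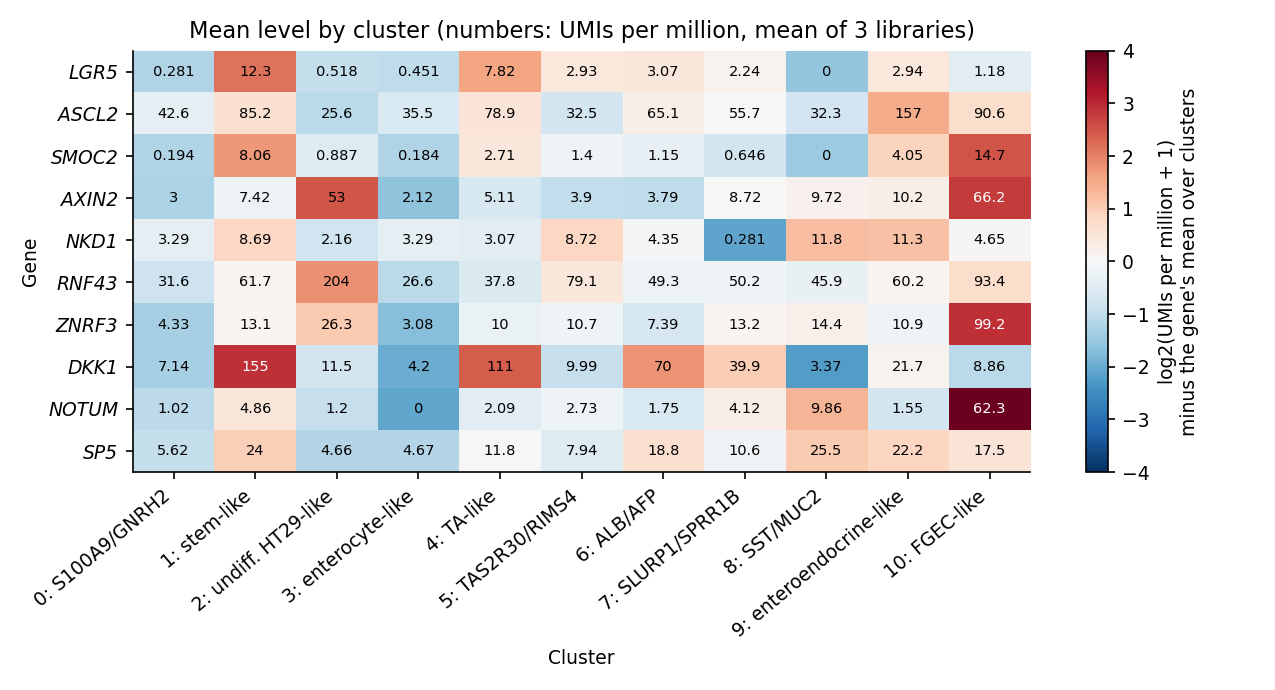
Mean level over 3 libraries of each gene in each of 11 clusters, printed in CPM and coloured by log2(CPM + 1) minus the gene's mean over clusters. LGR5 and DKK1 peak in cluster 1, RNF43 in cluster 2, and SMOC2, AXIN2, ZNRF3 and NOTUM in cluster 10, which held 8 cells in the LPS library.

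SMOC2, AXIN2, ZNRF3 and NOTUM had their highest means in the smallest cluster, named FGEC-like after fetal genes expressing cells. It held 21, 44 and 8 cells of control 1, control 2 and LPS, 0.504% of kept cells, 95.9% of them Caco-2-line, and was led by FABP7, PTN, COL1A2 and ERVH48-1. AXIN2 read 57.3, 88.2 and 53.1 CPM there, ZNRF3 78.1, 60.0 and 159, and NOTUM 115, 45.9 and 26.6. SMOC2 read 10.4, 7.06 and 26.6 on 5 UMIs, and its libraries overlapped with those of the stem-like cluster. ZNRF3 and NOTUM libraries lay above those of every other cluster, whereas those of AXIN2 overlapped with the undifferentiated HT29-like cluster. The values of AXIN2, ZNRF3 and NOTUM also rest on few counts, namely 38, 38 and 36 UMIs over the 3 libraries, and in the LPS library on 2, 6 and 1. Even so, this cluster held 18.6% of all NOTUM UMIs. Of its 73 cells, 44 (60.3%) held a UMI of AXIN2, ZNRF3 or NOTUM, against 10.8% of stem-like and 28.2% of undifferentiated HT29-like cells, which were shallower (median 4343.5 and 4102 UMIs against 6082).

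LGR5 and DKK1 had 1 UMI each in the FGEC-like cells. ASCL2 read 90.6 ± 30.5 CPM there, SP5 17.5 ± 15.9 on 12 UMIs and NKD1 4.65 ± 5.30 on 3 UMIs. The cluster also held a stromal marker: the 10 non-epithelial markers summed to 70.6 to 824 CPM over its libraries, against at most 82.0 in any other cluster. COL1A2 gave 44 of these 76 UMIs and COL1A1 20, while PTPRC, CD3E, DCN and PDGFRA were at 0, and the 5 epithelial markers summed to 5104 to 5713. COL1A2 was found in only 0.0622% of all kept cells, so its UMIs lay in few cells of the cluster. The part of these stromal counts in the Wnt genes was not tested.

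The clusters made up mostly of HT29-line cells differed from each other. The undifferentiated HT29-like cluster (2389 cells, 92.8% HT29-line, led by LCN2 and ANXA1) held 64.3% of all AXIN2 UMIs and 46.2% of RNF43 UMIs. A cluster led by SST, FCGBP, MUC2 and GCG (218 cells, 78.4% HT29-line), which carried both hormone and goblet cell genes and was given no cell type name, read 9.72 ± 6.57 CPM for AXIN2 against 53.0 ± 6.19 in undifferentiated HT29-like cells. RNF43 was at 45.9 ± 21.0 against 204 ± 29.8. NOTUM and SP5 went the other way, at 9.86 ± 3.55 against 1.20 ± 0.054 and at 25.5 ± 15.5 against 4.66 ± 0.62. The SST/MUC2 values rest on 9 UMIs for AXIN2, 9 for NOTUM and 24 for SP5. Values are over all cells of a cluster and were not split by line, so these contrasts are not shown for HT29-line cells alone. LGR5 and SMOC2 had no UMI in this cluster, which allows a share of cells with a UMI of up to 1.38%.

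The enteroendocrine-like cluster (179 cells, 91.6% Caco-2-line, with CLPS and INSM1 among its leading genes) had the highest ASCL2, at 181, 117 and 173 CPM in control 1, control 2 and LPS. The lowest of these overlapped the FGEC-like values, the next in order. RNF43 was highest in undifferentiated HT29-like cells (204 ± 29.8), and its libraries overlapped with those of the FGEC-like cluster (93.4 ± 81.6).

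For each gene, the genes with the most similar profile were sought over 10 clusters with at least 20 cells in each library, among 11120 genes, by Pearson's r of log2(CPM + 1). The points share libraries, so r is a description. With 10 points and 11120 genes, high r can also arise by chance, which was not tested. The FGEC-like cluster was left out by the cell minimum, though SMOC2, AXIN2, ZNRF3 and NOTUM had their highest means there. SMOC2 was at 14.7 CPM in it and LGR5 at 1.18, so their r does not cover that cluster. Among the 3 closest to each gene were LAMA1 and COTL1 for LGR5 (r = 0.948 and 0.938), RAB33A, RTRAF and NDUFA9 for ASCL2 (0.967 to 0.956), and SOX2, THBS1 and LRRC23 for SMOC2 (0.951 to 0.908). AXIN2 came closest to TMEM50A, MAGIX and CYP2R1 (0.973 to 0.946), and NKD1 to CCDC125, PPP1R10 and KCNQ1OT1 (0.959 to 0.952). RNF43 paired with LIF, DAPK1 and FZD6 (0.945 to 0.941) and ZNRF3 with HIRA, HDAC7 and GIPC1 (0.970 to 0.960). DKK1 was most like TMEM86B, EMC8 and EXOSC7 (0.967 to 0.944), NOTUM like TMEM231, FAM229A and NAT9 (0.907 to 0.881), and SP5 like MDK, RASD1 and CDKN2AIPNL (0.921 to 0.888). Between members, r was 0.91 for LGR5 and DKK1, 0.89 for LGR5 and SMOC2, 0.88 for AXIN2 and ZNRF3 and 0.86 for AXIN2 and RNF43, but -0.12 for LGR5 and AXIN2.

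DKK1 was packed into few cells. In the Caco-2 line 4266 DKK1 UMIs lay in 1035 of 11772 cells, or 4.12 per positive cell, with up to 103 in a cell. ASCL2, with a similar total of 3865 UMIs, was spread over 2781 cells at 1.39 each. The 118 cells (1%) with the most DKK1 held 54.3% of its UMIs, against 13.1% for ASCL2 and 12.4% for RNF43 in their own top 118. Of the 118 DKK1 cells, 66 were in the stem-like cluster, 43 in the TA-like cluster and 9 elsewhere, and 64, 33 and 21 came from control 1, control 2 and LPS. These cells were deep, with a median of 8476 UMIs against 4374.5 for all Caco-2-line cells. The top 118 cells of ASCL2 and RNF43 were deep as well, with medians of 10506.5 and 6949. The part of depth in these shares was not tested.

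**Figure D3:**
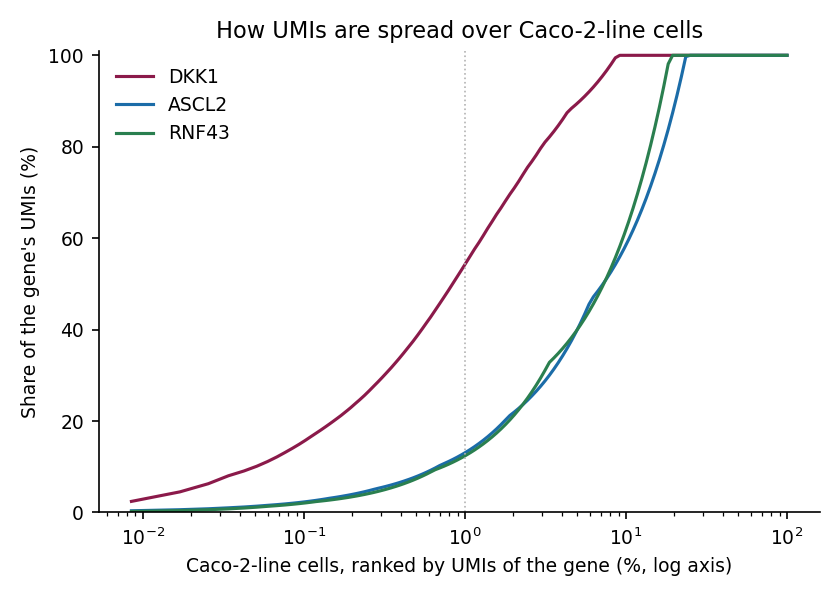
Cumulative share of the UMIs of DKK1, ASCL2 and RNF43 (%) over Caco-2-line cells ranked by their UMIs of that gene (% of cells, log axis), with a dotted line at 1% of cells. At that line the share is 54.3% for DKK1, 13.1% for ASCL2 and 12.4% for RNF43.

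Co-detection was read in cells thinned to the UMI minimum of control 1, with shallower cells left out. The share of cells with a second gene was higher in cells with the first than in the rest for 90 of 90 ordered pairs of the 10 genes in the Caco-2 line, in all 3 libraries for 58 of them. In the HT29 line it was higher for 23 of 54 pairs with at least 20 positive cells, in 3 libraries for 10. Pairs with LGR5 as the second gene could not be higher there, since no thinned HT29-line cell held an LGR5 UMI. The direction is the same in both orders of a pair, so ordered pairs are not independent. The share for pairs of other genes was not counted, so these tallies are descriptions. The pairs given next were chosen after their values were seen. SP5 was found in 10.4% of 628 DKK1-positive Caco-2-line cells (exact binomial 95% interval 8.08% to 13.0%) and in 2.26% of DKK1-negative cells. It was found in 12.7% of 126 AXIN2-positive cells (7.44% to 19.8%) and in 2.61% of AXIN2-negative cells. RNF43 was present in 31.6% of 57 NOTUM-positive cells (19.9% to 45.2%) and 9.00% of NOTUM-negative cells. In HT29-line cells, AXIN2 was found in 14.7% of 695 RNF43-positive cells (12.1% to 17.5%) and in 8.85% of the rest. Each of these differences had the same sign in 3 of 3 libraries. Others were small or went the other way. NKD1 was found in 1.08% of ZNRF3-positive and 1.01% of ZNRF3-negative Caco-2-line cells, and AXIN2 in 8.57% of ASCL2-positive and 10.9% of ASCL2-negative HT29-line cells. Intervals cover counting error only, and cells of a library are not replicates. Most thinned cells carried few members: 70.9% to 72.1% of Caco-2-line and 48.1% to 60.0% of HT29-line cells held none.

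Caco-2-line cells with an LGR5 UMI were compared with those without, to ask whether the other 9 genes go with this stem cell marker. There were 121, 70 and 62 such cells in control 1, control 2 and LPS. Of 9 genes tested, 8 were higher in LGR5-positive cells at an adjusted p under 0.05, against 4.76% of all genes called higher and 12.5% called either way. LGR5-positive cells were deeper, at medians of 7692, 6187 and 5038 UMIs against 5425.5, 4184 and 3547.5.

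The largest difference was that of SMOC2, at 21.1, 15.5 and 20.4 CPM in the LGR5-positive cells of control 1, control 2 and LPS against 2.58, 2.94 and 1.48 (2.82 ± 0.39 on the log2 scale, adjusted p = 4.53e-08). DKK1 read 315, 285 and 221 against 61.0, 60.7 and 64.8 (2.00 ± 0.10, adjusted p = 9.21e-26). The fit had 2 residual degrees of freedom, so its SE and p draw on the variance of all genes. Both can understate a gene's own spread between libraries. ASCL2 read 146, 91.1 and 81.4 against 69.0, 57.4 and 53.0 (0.70 ± 0.13, adjusted p = 2.53e-05). The feedback genes were also higher, with differences of 1.58 ± 0.37 for NKD1, 1.43 ± 0.34 for AXIN2, 1.29 ± 0.23 for SP5, 1.12 ± 0.29 for ZNRF3 and 0.72 ± 0.15 for RNF43. NOTUM did not pass (1.03 ± 0.55, adjusted p = 0.248).

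**Figure D4:**
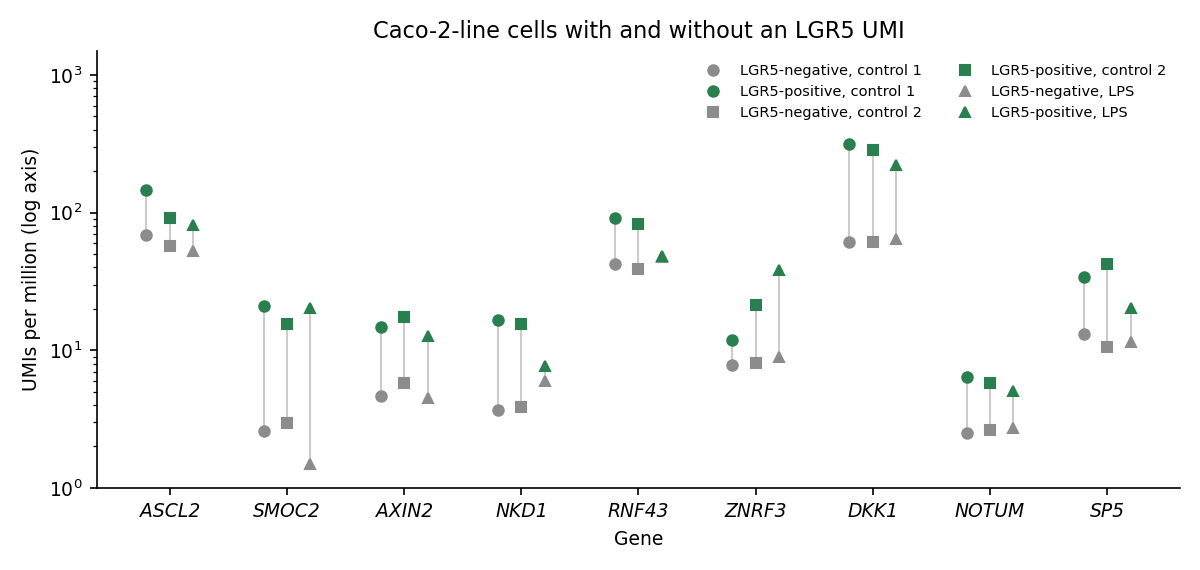
Levels in CPM (log axis) of the other 9 genes in Caco-2-line cells with (green) and without (grey) an LGR5 UMI, with a line joining the values of a library. The green point lies above the grey point in 3 of 3 libraries for each gene.

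This count changed under other settings. Without control 1 it fell to 4 of 9. In cells thinned to the UMI minimum of control 1, with shallower cells left out, SMOC2 alone of 8 genes tested passed. DKK1 moved from 2.00 to 0.16 ± 0.37, and ASCL2 was at 0.85 ± 0.32 (adjusted p = 0.151). The median over all genes moved as well, from -0.014 to -0.26. Thinned DKK1 read 114, 92.6 and 41.7 CPM in the LGR5-positive cells of control 1, control 2 and LPS, on 19 UMIs. In LGR5-negative cells it read 60.2, 58.7 and 54.2. Thinning also changed which cells count as LGR5-positive, from 253 to 99, so depth and membership changed at once. Within the stem-like cluster alone, an alternative added after the data were seen, 5 of 9 passed, namely SMOC2 (1.91 ± 0.39), NKD1 (1.75 ± 0.40), AXIN2 (1.52 ± 0.45), DKK1 (1.36 ± 0.12) and ASCL2 (0.71 ± 0.16), and ZNRF3 was at -0.00 ± 0.44. LGR5-positive cells lay in that cluster in 46.8% to 66.1% of cases, against 23.4% to 26.8% of the others.

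Of other Wnt targets, 7 of 22 were higher in LGR5-positive cells and 1 lower, against 4.76% and 7.78% of all genes, led by SLC12A2 (1.62 ± 0.14), an ion cotransporter, EPHB2 (1.38 ± 0.27), a receptor that positions crypt cells, and RGMB (1.15 ± 0.35). WNT5B was higher (2.82 ± 0.66) and WNT11 lower (-1.92 ± 0.48). DKK3, a further member of the DKK family, was higher (1.24 ± 0.26). Of 13 other stem cell markers, 6 were higher and none lower, with MEX3A at 1.17 ± 0.22. In thinned cells, 26 genes in all were called higher and 330 lower, against 632 and 1033 here, and these lists were not counted there.

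Cell cycle phase was also compared within the Caco-2 line, with phases called from the standard Seurat gene lists. Of the 10 genes, 5 were higher in G2M than in G1 cells and none was lower, against 26.2% of all genes called higher and 51.8% called either way. Phases were compared over all Caco-2-line cells and not within a cluster. The clusters differ in these genes, and the TA-like cluster was named by proliferation markers. The part of cluster make-up in the phase differences was not tested. LGR5 read 8.32, 5.97 and 7.28 CPM in the G2M cells of control 1, control 2 and LPS and 3.84, 2.38 and 3.05 in G1 cells (1.15 ± 0.20, log2, adjusted p = 4.80e-06). ASCL2 read 92.2, 72.7 and 66.7 against 55.7, 46.3 and 42.01 (0.63 ± 0.06, adjusted p = 8.12e-12). DKK1 read 62.1, 103 and 107 in G2M against 56.9, 38.2 and 34.6 in G1 (0.96 ± 0.14, adjusted p = 8.79e-08). Its gap was small in control 1 and wide in control 2 and LPS. The SE draws on the variance of all genes and understates that spread. SP5 (0.59 ± 0.13) and ZNRF3 (0.46 ± 0.16) also passed, though ZNRF3 was lost without control 1 (adjusted p = 0.457), with DESeq2 (0.158) and without the library block (0.0571).

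AXIN2 was close to the threshold (0.44 ± 0.19, adjusted p = 0.0515). RNF43 was at 44.1 ± 6.08 CPM in G1 and 46.2 ± 6.35 in G2M (0.02 ± 0.08), and NKD1 (0.09 ± 0.20), NOTUM (0.18 ± 0.27) and SMOC2 (0.19 ± 0.30) did not pass. Of other Wnt targets, 13 of 21 were higher in G2M and 1 lower, led by CDCA7 (3.07 ± 0.13) and LEF1 (1.63 ± 0.43). Of 23 destruction complex and transducer genes, 1 was higher and 9 were lower, with TCF7L2 at -0.51 ± 0.05, where 25.6% of all genes were lower. G2M cells were deeper, with a median of 5754 UMIs against 3867.5 in G1.

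The last comparison asked whether 24 h of LPS moved these genes. None of the 10 passed the threshold in all kept cells, in Caco-2-line cells or in HT29-line cells, where 0.131%, 0.00664% and 0.0531% of all genes passed. With edgeR, 2, 1 and 0 of the 10 had an unadjusted p under 0.05, and DESeq2 gave 0 of 10 in each, with no unadjusted p under 0.05. The fit assumes that the lone LPS library varies as the controls do. The LPS library lay outside both controls for 7 of 10 genes in the Caco-2 line and 5 of 10 in the HT29 line, as it did for 73.1% and 63.5% of all genes tested.

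SMOC2 had the largest change in the Caco-2 line, from 3.38 and 3.27 CPM in the controls to 1.93 with LPS (-0.87 ± 0.39 on the log2 scale, adjusted p = 0.998). ASCL2 was below both controls in each line, at 53.7 against 72.4 and 58.2 in the Caco-2 line (-0.37 ± 0.21, adjusted p = 0.998) and at 20.7 against 30.0 and 21.0 in the HT29 line (-0.38 ± 0.30). In the HT29 line the controls were farther from each other than the LPS value was from control 2. RNF43 was above both controls in the HT29 line, at 235 against 199 and 165 (0.29 ± 0.19), and AXIN2 at 57.2 against 47.0 and 50.8 (0.15 ± 0.20). DKK1 in the Caco-2 line lay between the controls (-0.11 ± 0.23). Other fitted changes in the Caco-2 line were -0.22 ± 0.37 for LGR5, -0.32 ± 0.23 for AXIN2, 0.43 ± 0.31 for NKD1, 0.07 ± 0.19 for RNF43, 0.14 ± 0.22 for ZNRF3, -0.04 ± 0.37 for NOTUM and -0.21 ± 0.24 for SP5. In the HT29 line they were 0.66 ± 1.58 for LGR5, 1.24 ± 1.01 for SMOC2, 0.45 ± 0.59 for NKD1, 0.10 ± 0.24 for ZNRF3, 0.34 ± 0.45 for DKK1, -0.54 ± 0.80 for NOTUM and -0.27 ± 0.47 for SP5. None of the 10 genes differed between lines in its change with LPS at the threshold, where 0% of all genes did, with no unadjusted p under 0.05 among the 10 by edgeR or DESeq2. No gene of the lists of other Wnt and stem cell genes passed the threshold in these comparisons.

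**Figure D5:**
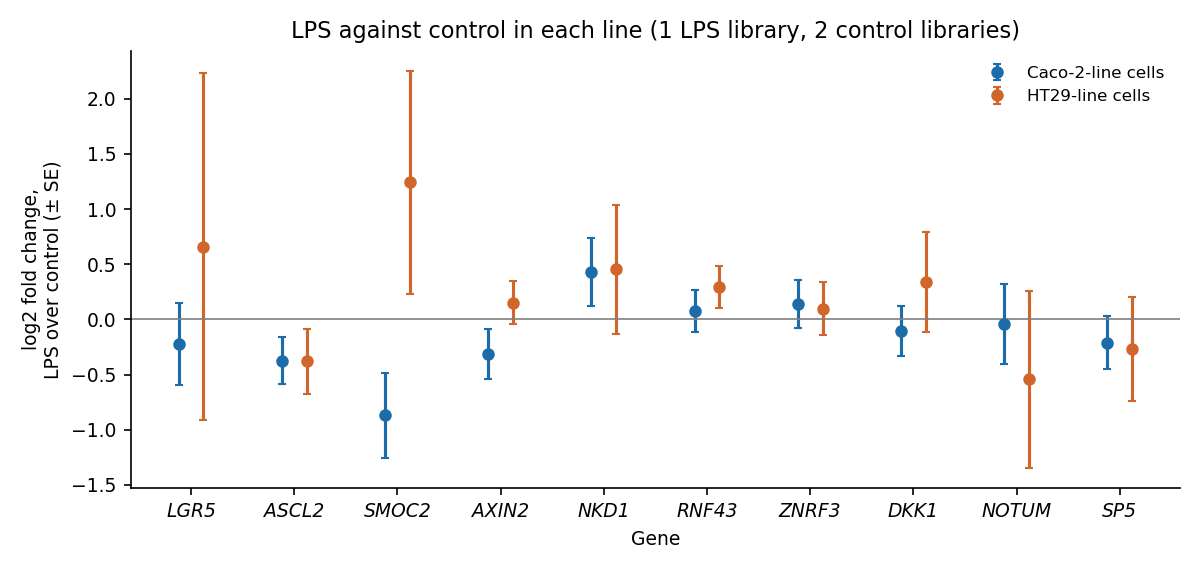
Log2 fold change of each gene, LPS over control, in Caco-2-line and HT29-line cells, with bars for the SE of the edgeR fit to 1 LPS and 2 control libraries. The widest bars are those of LGR5 (SE 1.58) and SMOC2 (SE 1.01) in the HT29 line, which rest on 5 and 8 UMIs.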

How the data were processed

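Single-cell RNA libraries (Chromium Single Cell 3' kit) were sequenced from 2 control samples and 1 LPS sample. The authors deposited raw counts of UMIs per gene and cell barcode, made with Cell Ranger 3.1.0 per the file headers after mapping to GRCh38, with no cell filter of their own applied. Totals were 33893707, 27934953 and 24185467 UMIs in 5811, 6495 and 6838 barcodes of control 1, control 2 and LPS. Cells were kept with at least 2250 UMIs and 770 genes in control 1 or 1500 UMIs and 700 genes in the other libraries, provided that mitochondrial genes gave no more than 20% of UMIs. Scrublet marked 0 doublets by its own cut-off. Per library, cells were therefore ranked by doublet score and the top 6% left out.

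A line was assigned by a mixture of 2 components per library on the summed signature genes (389 for HT29 and 750 for Caco-2, from the study's lists), at a posterior of at least 0.95. The study calculated those lists from bulk RNA sequencing of the lines grown alone. Cells were clustered with sctransform 0.4.2 and integration in Seurat 5.3.0 and the Leiden method (leidenalg 0.10.2) at a resolution of 0.5. A cluster was named where at least 3 markers of a list were raised and a marker was among its 10 leading genes, a rule chosen after the clusters had been seen. By this rule the cluster led by SST, FCGBP, MUC2 and GCG was goblet-like. That name was set aside, since SST and GCG are hormone genes. The clusters were made from the cells compared, so p-values of cluster comparisons are not given.

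Counts were summed per library and cell group and fitted with edgeR 4.0.16 (R 4.3.3, TMM scaling, filterByExpr, quasi-likelihood test, Benjamini-Hochberg adjustment over all genes tested, threshold 0.05), with the library as a block except in the LPS comparisons. All log2 fold changes and adjusted p-values in the text come from it unless DESeq2 1.42.0 is named. Sums of a library come from 1 sample, so p-values measure only the spread between these samples. In the edgeR fits that spread is shrunk towards the spread of all genes. An SE is the log2 fold change over the root of the F statistic and can be smaller than a gene's own spread between libraries. Residual degrees of freedom were 2 for lines, LGR5-positive cells and LPS within a line, 4 for phases, 18 for clusters and 1 for LPS in all cells. In a sum, fewer cells of a type and less RNA per cell cannot be told apart. The block is the library itself, which pairs the cell groups. Intervals are exact, at 95%, and a count of 0 is given the limit of 3 counts, both for counting error only. Scripts were tested on simulated data.

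The members and gene lists were chosen with earlier results of these data known. All members are named in the comparisons of lines, clusters, phases and LGR5-positive cells and of LPS within each line. For LPS in all cells and the difference of its change between lines they are given as counts. From each other list up to 3 genes with the largest change past the threshold are named, and LGR4 and OLFM4 were named after their values had been seen. Promoters came from RefSeq tables, which matched 4 of the 10 genes. One of the 3 genes most like LGR5 is not reported here.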

Additional observations from a re-analysis of the deposited data

How the results depend on the processing

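Of 10 genes that differed between the lines, 8 to 9 passed with 1 library left out, 8 with DESeq2, 9 with the stricter cell minimums or with lines taken from clusters, and 10 without the library block, and none of the 10 turned direction under these. Those lost were NKD1 and NOTUM. For G2M against G1, 4 to 6 of 10 passed under the other settings (4 to 5 with 1 library left out, 4 without the block) and 5 of 8 in thinned cells, where the filter removed SMOC2 and NOTUM. RNF43 turned to -0.010 with no filter, -0.0091 with doublets kept, -0.0029 with the stricter minimums and -0.098 in thinned cells. With 1 library left out, RNF43 ranged from -0.082 to 0.070, SMOC2 from -0.36 to 0.40 and NKD1 from -0.042 to 0.23, each lowest without control 1. For LGR5-positive cells, 8 of 9 fell to 5 within the stem-like cluster, to 1 of 8 in thinned cells and to 4 to 8 with 1 library left out. ZNRF3 turned to -0.0031 within the stem-like cluster. Without the library block 8 passed as well.

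The median of stem-like against enterocyte-like was 1.93, with 1.77 to 2.04 when 1 library was left out, 2.91 with doublets kept, 1.64 with the stricter minimums, 2.86 and 1.71 at resolutions of 0.8 and 0.3, and 2.76 with the Wnt genes among the features. For TA-like against enterocyte-like it was 1.30, with 0.453 with doublets kept, 1.03 with the stricter minimums and 0.450 with the Wnt genes among the features. NKD1 turned to 0.15 with log normalization and SP5 to -0.21 with the Wnt genes among the features. For stem-like against TA-like it was 0.63, with 2.73, 1.85 and 3.09 for doublets kept, a resolution of 0.8 and the Wnt genes among the features, and ASCL2 ranged from -0.0026 to 0.13 with 1 library left out. No TA-like class formed at a resolution of 0.3, so those comparisons have no value there. The stem-like class held 3072 cells in the main setting. It held 877 at a resolution of 0.8, 779 with doublets kept and 741 with the Wnt genes among the features. The cause of these changes was not tested.

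None of the 10 genes passed with LPS under the settings run. With 1 control left out there is no residual degree of freedom, so the ranges below are values with no test. In all cells LGR5 ranged from -0.55 to 0.25, AXIN2 from -0.014 to 0.24 and SP5 from -0.43 to 0.013, and NOTUM was 0.015 with the stricter minimums. In the Caco-2 line LGR5 ranged from -0.52 to 0.19 and RNF43 from -0.034 to 0.19, and NOTUM was 0.048 with the stricter minimums. In the HT29 line the ranges were -0.30 to 5.70 for LGR5 (the upper value is against control 2 alone, which is at 0, and is no bound), -0.046 to 1.24 for NKD1, -0.096 to 0.33 for ZNRF3, -0.19 to 1.20 for DKK1 and -0.64 to 0.25 for SP5. DKK1 was -0.17 with doublets kept and -0.029 with lines from clusters, where ZNRF3 was -0.018. For the difference of the LPS change between lines the ranges were -0.076 to 0.094 for ASCL2, -0.24 to 0.20 for ZNRF3, -0.27 to 0.27 for SP5, -0.43 to 0.76 for NKD1 and -0.89 to 0.013 for NOTUM. With doublets kept, NKD1, DKK1 and SP5 were -0.014, -0.070 and 0.091, and with lines from clusters ASCL2, NKD1 and NOTUM were 0.32, -0.12 and 0.037.

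Over all genes, LPS calls in all cells were 21, with 6 by DESeq2, 47 with no filter, 11 with doublets kept and 7 with the stricter minimums. In the Caco-2 line they were 1, with 34 with no filter and 0 with lines from clusters. In the HT29 line they were 8, with 32, 5 and 3 with no filter, doublets kept and lines from clusters. The difference between lines had 0, with 3 by DESeq2 and 12 with no filter. G2M calls were 6810, with 4479 by DESeq2 and 4384 in thinned cells. LGR5-positive calls were 1665, with 717 by DESeq2, 880 without the block, 691 without control 1, 176 within the stem-like cluster and 356 in thinned cells. Depth limits LGR5, SMOC2 and NOTUM in the HT29 line, with 5, 8 and 18 UMIs.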
